A study of Mus musculus with 32 samples.

Results

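The 9 aquaporin genes *Aqp1*, *Aqp2*, *Aqp3*, *Aqp4*, *Aqp5*, *Aqp6*, *Aqp7*, *Aqp8* and *Aqp11* were followed through every library of a study of ENL mutations in the embryonic mouse kidney. They were chosen by name, as the aquaporins of the nephron and of the collecting duct, and are 9 of the 55806 gene identifiers in the count tables. Members of the group that this choice leaves out include *Aqp9*, *Aqp12* and *Mip*. In whole E18.5 kidneys in which Six2-Cre switched on the mutant, 6 of the 9 aquaporins were called lower with either of 2 mutant alleles. Over all tested genes 4.88% and 5.28% were lower. *Aqp5* was called higher, beside 2.88% and 4.34% of tested genes. *Aqp5* lies between *Aqp2* and *Aqp6* in one stretch of chromosome 15 whose outer genes both fell.

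ENL, encoded by *Mllt1*, is a chromatin reader. The mutant alleles change its YEATS domain as found in Wilms tumor, by the insertion 117_118insNHL (T1) or the replacement 111_113NPP>K (T3), and mice of the C57BL/6J background carried 1 conditional copy beside 1 normal copy. Cre came from the Six2-TGC transgene, which is active in nephron progenitors and so in their descendants, or from the Foxd1-GC allele, which is active in the stromal lineage and removes 1 functional copy of the Foxd1 gene. The controls (ENLWT) carried the same Cre, Six2-TGCtg/+ or Foxd1GC/+, with both copies of Enl normal. Whole E18.5 kidneys were measured as 2 libraries each of ENLWT, Six2-ENLT1 and Six2-ENLT3, and as 3 each of ENLWT and Foxd1-ENLT1. Sorted tdT+ cells, in which a Cre-activated tdTomato reporter marks the lineage, were measured as 3 libraries each of ENLWT and Six2-ENLT1 at E14.5 and again at E18.5, and as 4 each of ENLWT and Foxd1-ENLT1 at E18.5. In the whole kidney, a change in the share of cells of a type and a change in RNA per cell cannot be told apart, so that a lower level may be fewer cells of a type or less RNA per cell. The sources do not say which embryos or litters gave which library, and the p-values measure the spread between libraries.

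Aquaporins are membrane channels that let water, and in some members glycerol, cross the cell membrane. In the kidney, *Aqp1* carries the bulk of water reabsorption in the proximal tubule and the thin descending limb, and is also made by endothelium of the descending vasa recta and by red cells. *Aqp7*, an aquaglyceroporin, lies in the straight part of the proximal tubule, and *Aqp11* is an intracellular channel of proximal tubule cells. *Aqp8* is found inside cells at low levels. In the collecting duct, the antidiuretic hormone vasopressin moves *Aqp2* to the apical membrane of principal cells, and water leaves those cells through the basolateral channels *Aqp3* and *Aqp4*. *Aqp6* lies in vesicles of acid-secreting intercalated cells, and *Aqp5*, known best from glands and lung, has been described in intercalated cells of the pendrin type. The nephron descends from the Six2 lineage. The collecting duct descends from the ureteric bud, which neither Cre line targets. The paper counts the connecting segment, marked by *S100g*, among the nephron tubules. The names of the nephron and collecting duct sets thus do not tell which cells of these kidneys made a transcript.

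The places of the genes are those of GENCODE vM21 on GRCm38. *Aqp2* (chr15:99579055-99584547), *Aqp5* (chr15:99590782-99594829) and *Aqp6* (chr15:99601400-99605477) stand head to tail on the plus strand. They are 6234 and 6570 bases apart, with no other annotated gene between them, in a stretch of 26423 bases. *Aqp7* (chr4:41033074-41048139) and *Aqp3* (chr4:41092722-41098183), both on the minus strand, are 44582 bases apart, with the small RNA gene *Gm25637* between them. *Aqp1* lies at chr6:55336432-55348555, *Aqp8* at chr7:123462291-123468004 and *Aqp11* at chr7:97724006-97738289. All 9 are protein-coding, and none shares an exon base with another annotated gene, which matters because reads were counted without strand.

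The 250 bases before the RefSeq start (GRCm38.p6) are shown for the outer genes of the tandem, which fell in the mutants while the gene between them rose. Capitals mark matches on either strand to the E-box letters CACGTG, to the partial cAMP-response letters TGACGT (whose reverse strand is also capitalised) and to the GATA-type letters AGATAA.
*Aqp2*, chr15:99578806-99579055, plus strand: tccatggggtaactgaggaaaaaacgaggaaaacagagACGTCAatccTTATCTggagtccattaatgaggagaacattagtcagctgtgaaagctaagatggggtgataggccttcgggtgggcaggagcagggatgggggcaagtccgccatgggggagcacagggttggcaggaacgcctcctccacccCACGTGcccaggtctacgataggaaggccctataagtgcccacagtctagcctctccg
*Aqp6*, chr15:99600950-99601199, plus strand: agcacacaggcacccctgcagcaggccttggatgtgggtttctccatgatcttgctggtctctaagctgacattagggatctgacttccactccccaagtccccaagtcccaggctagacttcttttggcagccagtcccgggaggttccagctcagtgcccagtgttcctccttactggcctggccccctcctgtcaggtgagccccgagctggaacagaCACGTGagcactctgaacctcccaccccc
CACGTG, which reads the same on both strands, occurs in the windows of *Aqp2*, *Aqp5*, *Aqp6* and *Aqp8* and in 6.02% of the 32851 RefSeq promoter windows of this length. TGACGT occurs among the members only in *Aqp2* (6.47% of windows). The full cAMP-response letters TGACGTCA, which begin with it, occur in none of them (1.55% of windows). AGATAA occurs in *Aqp2* and in 1 of the 2 windows of *Aqp7* (9.99% of windows). The window of *Aqp5* held 38 CpG, a number that 1.88% of windows reach, against 8 for *Aqp2*, 3 for *Aqp6* and a median of 6 over all windows. Nearly all of the *Aqp5* window lies inside the gene as vM21 places its start, so it is given by its composition only. Of the 9 members 8 had a window, *Aqp4* being the exception. A match describes the letters and says nothing of binding.

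Total counts ran from 67137194 to 157266455 in the 12 libraries of whole kidney and from 76510702 to 137888792 in the 12 of sorted Six2 cells, but only from 2557443 to 3508381 in the 8 of sorted Foxd1 cells. There, a count of 3, taken as the floor, already stands for 0.841 to 1.22 CPM, the count scaled to the library's normalised total. Levels are given in CPM, and between genes in RPKM, which also divides by exon length. Genes were tested by quasi-likelihood in edgeR, with p-values adjusted (Benjamini-Hochberg) across the tested genes, and those past 1.5-fold whose adjusted p lay below 0.05 were called. *Mllt1* changed by less than that fold in each comparison of genotypes (log2 differences from -0.33 to -0.02), and its counts cannot separate the mutant allele from the normal one. By *Xist* and *Ddx3y*, the Six2-ENLT1 whole kidneys were both male, the Six2-ENLT3 both female and their controls 1 of each, so sex and allele cannot be told apart between T1 and T3. All 6 whole Foxd1 kidneys were female and all 8 sorted Foxd1 libraries male.

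In normal whole kidneys at E18.5 *Aqp2*, *Aqp1* and *Aqp3* had the highest levels per length. In the Six2 controls *Aqp2* stood at 84.3 and 107 RPKM and *Aqp1* at 90.5 and 96.2, so that this leading pair was not separated. *Aqp3* followed at 42.1 and 49.0 RPKM, *Aqp4* at 8.78 and 9.53, and *Aqp6* at 4.29 and 4.55, each apart from its neighbours in the order. *Aqp11* (2.15 and 3.06) and *Aqp7* (2.03 and 2.38) overlapped. *Aqp5* stood at 0.859 and 0.878 RPKM and *Aqp8* at 0.154 and 0.292. The Foxd1 controls gave the same order, but *Aqp2* (201 to 302 RPKM) lay clear above *Aqp1* (95.5 to 106) and *Aqp6* (3.18 to 3.93) overlapped *Aqp11* (3.08 to 3.29).

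**Figure D1:**
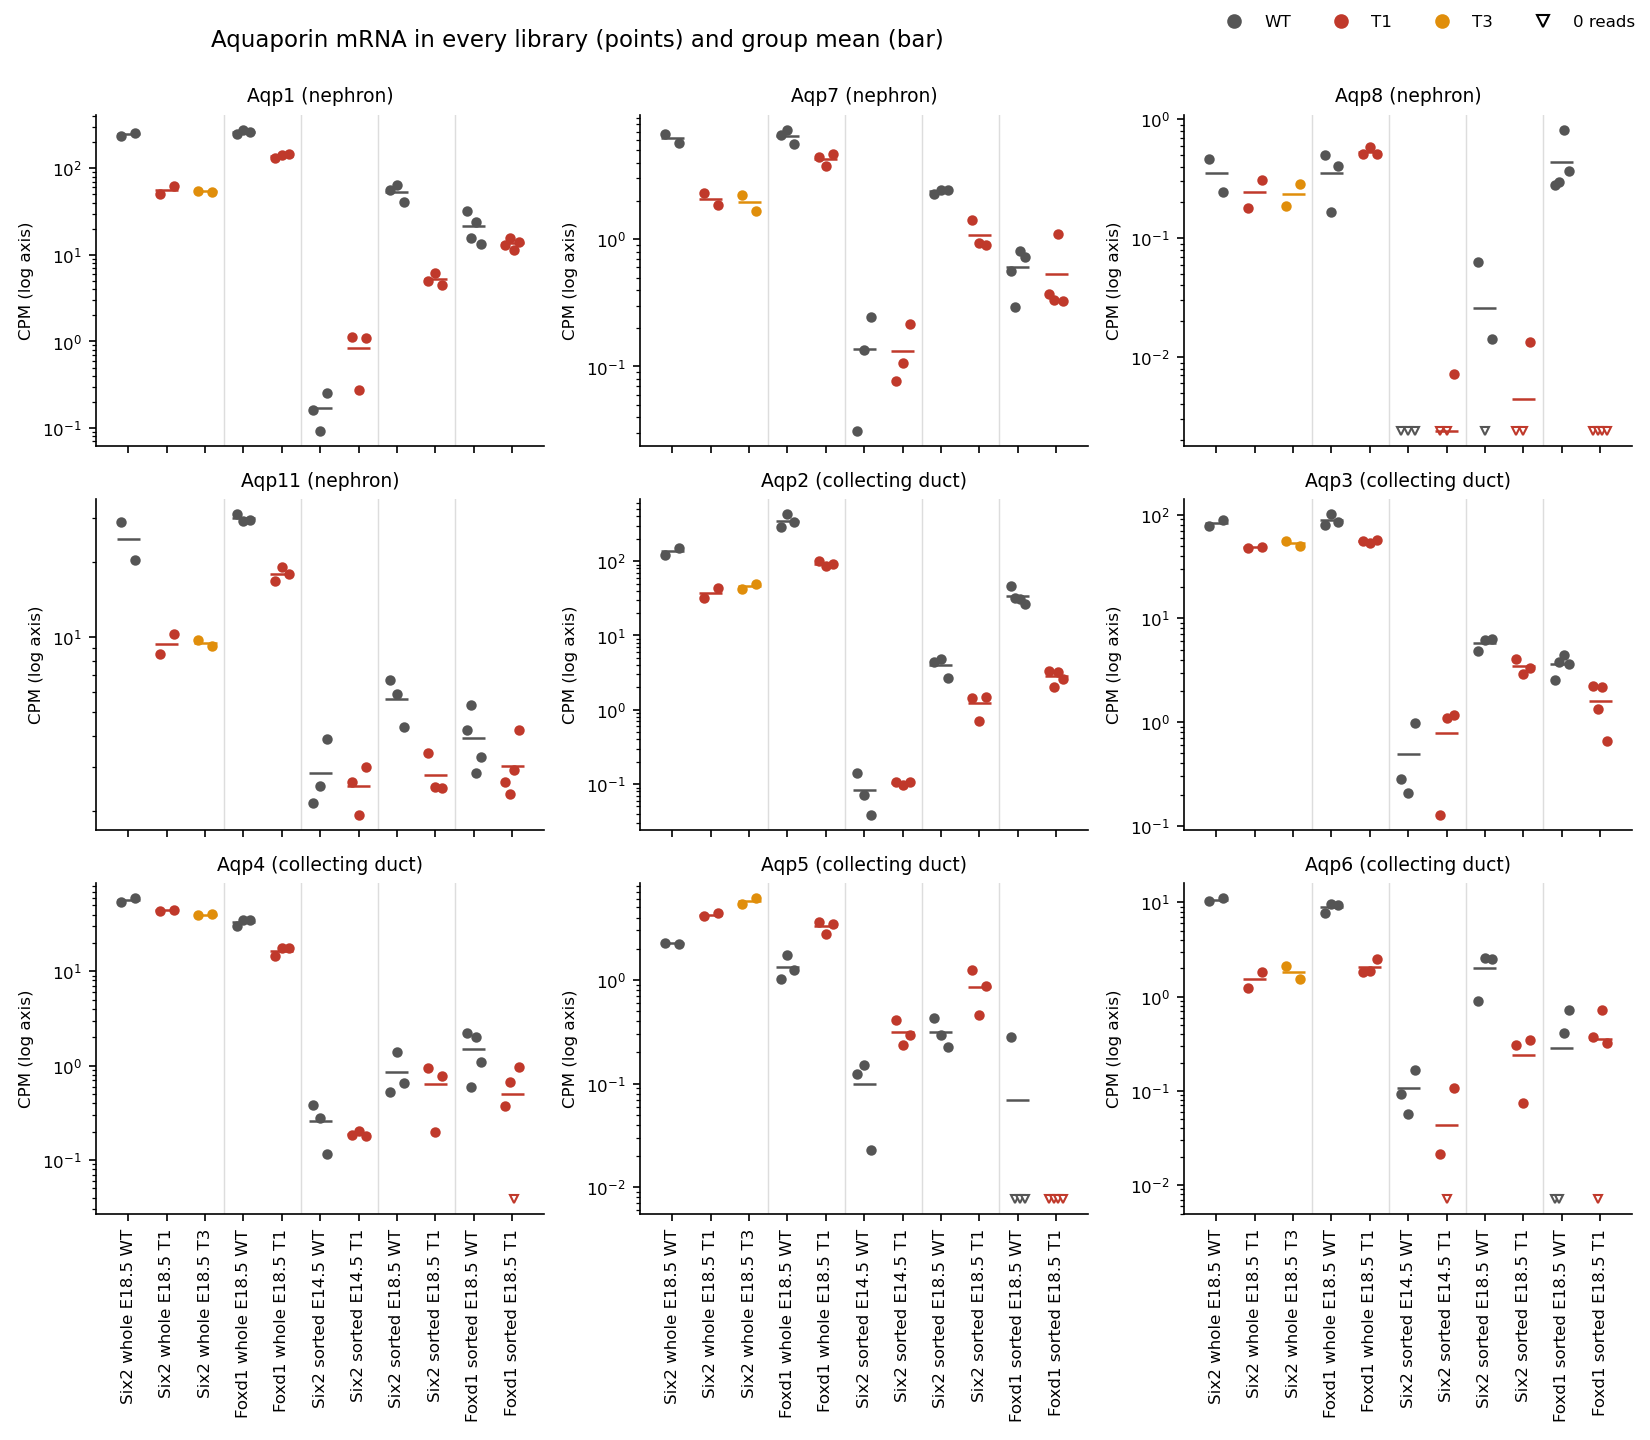
Level of each aquaporin in CPM (log axis) in all 32 libraries; points are libraries, bars are group means, and open triangles below the lowest value mark libraries with 0 reads. Both mutant alleles lie below the controls in whole Six2 kidneys for every aquaporin but *Aqp5*, which lies above, and *Aqp8*, which overlaps. The share of all tested genes so separated was not taken.

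The nephron aquaporins fell in whole kidneys of both Six2 mutants. *Aqp1* stood at 238 and 253 CPM in the controls, at 50.1 and 61.9 in Six2-ENLT1 and at 54.4 and 53.5 in Six2-ENLT3. It was 4.38-fold lower in T1 (log2 difference -2.13 ± 0.10, SE, adjusted p = 3.71e-05) and 4.55-fold lower in T3 (-2.19 ± 0.10, adjusted p = 2.66e-05). *Aqp7* stood at 6.72 and 5.75 CPM in the controls, 2.28 and 1.86 in T1 and 2.24 and 1.67 in T3. Its log2 differences were -1.59 ± 0.19 (adjusted p = 0.00141) and -1.67 ± 0.19 (adjusted p = 0.000991). For the intracellular channel *Aqp11* the controls had 28.8 and 20.3 CPM, T1 8.51 and 10.2, and T3 9.65 and 9.17. This was 2.62-fold lower in T1 (adjusted p = 0.00157) and 2.61-fold lower in T3 (adjusted p = 0.00136). None of the mutant libraries of these 3 genes reached into the control range. With 2 libraries a group, the share of all tested genes separated in this way was not taken, nor was it in the comparisons below.

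*Aqp8* was the nephron member without a call. Its controls had 60 and 37 reads (0.461 and 0.244 CPM), T1 28 and 36 (0.178 and 0.306 CPM) and T3 20 and 32 (0.187 and 0.283 CPM). The groups overlapped, and the log2 differences of -0.55 ± 0.46 and -0.57 ± 0.47 had adjusted p-values of 0.527 and 0.467.

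Among the collecting duct aquaporins, the vasopressin-regulated channel *Aqp2* fell. It stood at 119.7 and 152 CPM in the Six2 controls, at 31.4 and 43.0 in T1 and at 42.7 and 49.3 in T3. These are differences of 3.66-fold (log2 -1.87 ± 0.17, adjusted p = 0.000423) and 2.96-fold (-1.56 ± 0.17, adjusted p = 0.000731). The basolateral channels of the same cells had smaller differences. *Aqp3* went from 77.0 and 89.6 CPM to 47.3 and 49.1 in T1 and 56.1 and 49.8 in T3, 1.73-fold (adjusted p = 0.00113) and 1.57-fold lower (adjusted p = 0.00224). Its T3 fold fell under 1.5 without Six2-ENLT3 replicate 2 (log2 -0.57), without ENLWT replicate 2 (-0.52) and when libraries were scaled by their totals only (-0.58). *Aqp4*, at chr18:15389496-15410982 and overlapped there by AC133525.2 without a shared exon base, stood at 54.8 and 59.4 CPM in the controls, 43.6 and 44.8 in T1 and 39.7 and 40.1 in T3. The adjusted p-values were 0.00731 and 0.00136, but the changes of 1.29-fold and 1.43-fold are under the threshold and were not called. The groups did not overlap, though the share of all tested genes so separated was not taken.

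The intercalated cell pair went opposite ways. *Aqp6*, the vesicle channel, stood at 10.4 and 11.03 CPM in the controls, at 1.25 and 1.81 in T1 and at 2.09 and 1.55 in T3. At 7.05-fold lower in T1 (log2 -2.82 ± 0.21, adjusted p = 0.00019) and 5.89-fold lower in T3 (-2.56 ± 0.21, adjusted p = 0.000239) it had the largest fold of the 9 genes in both alleles. *Aqp5* stood at 2.28 and 2.23 CPM in the controls, at 4.10 and 4.44 in T1 and at 5.43 and 6.12 in T3. It was 1.89-fold higher in T1 (log2 0.92 ± 0.13, adjusted p = 0.00271) and 2.56-fold higher in T3 (1.35 ± 0.13, adjusted p = 0.000416). Its order among the 9 by RPKM thus went from below *Aqp6*, *Aqp11* and *Aqp7* in the controls (0.859 and 0.878) to above all 3 in T1 (1.58 and 1.71, against 0.904 and 1.08 for *Aqp11*) and in T3 (2.09 and 2.35).

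By count, 6 of 9 aquaporins were called lower in T1 and the same 6 in T3, where 4.88% and 5.28% of the 23931 tested genes were lower. *Aqp5* was the 1 called higher, beside 2.88% and 4.34% of tested genes. The comparisons share their 2 control libraries. Between the alleles themselves no aquaporin was called by edgeR or DESeq2 (0.00418% of tested genes were called by edgeR, in either direction), and 2 had an unadjusted p under 0.05. These were *Aqp5*, higher in T3 by 0.44 ± 0.12 on the log2 scale (adjusted p = 0.563), and *Aqp4*, lower in T3 by 0.15 ± 0.06 (log2 -0.15, adjusted p = 0.694). Over 8 alternative settings with no library left out, *Aqp2* was higher in T3 by 0.29 to 0.32, under 1.5-fold. Its adjusted p ran from 0.00996 to 0.791 over these settings.

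**Figure D2:**
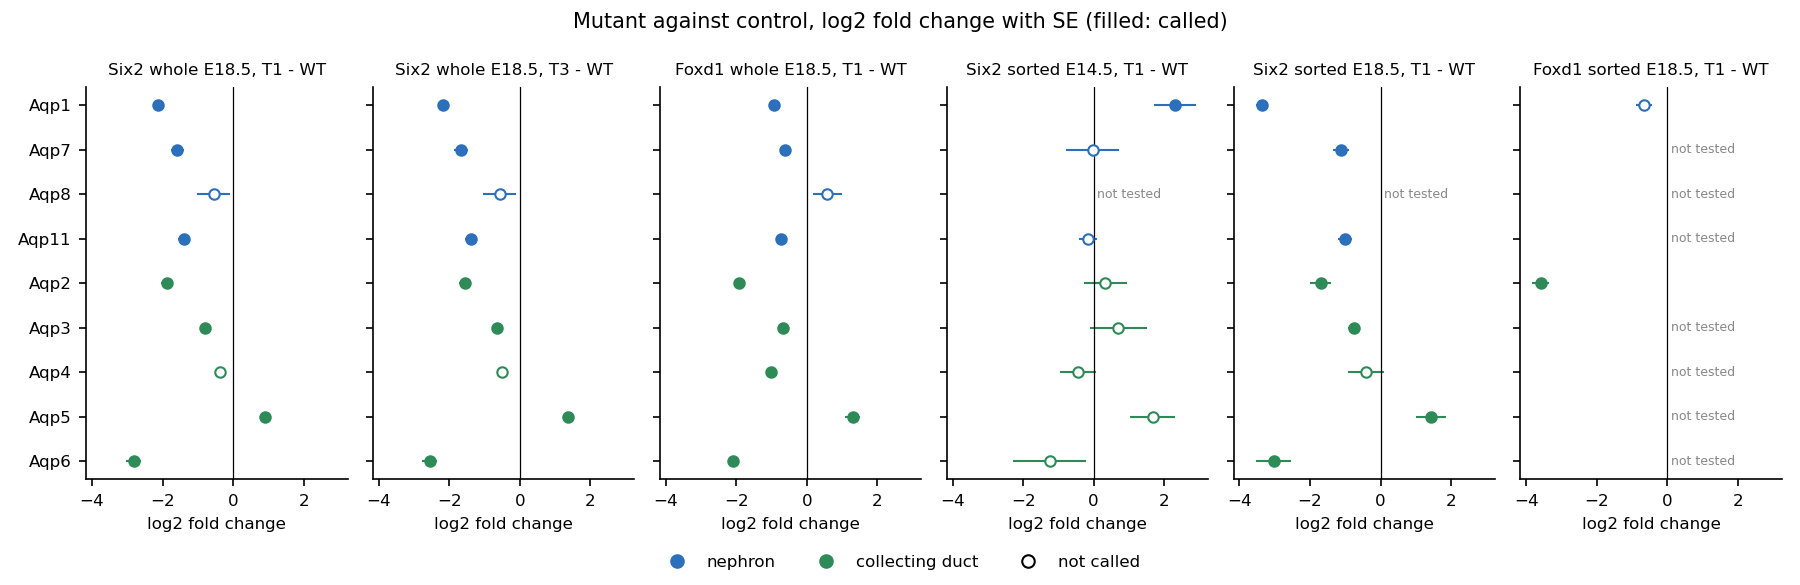
Difference between mutant and control (log2 fold change, x axis) for each aquaporin in the 6 comparisons of genotypes; bars are the standard error, filled points passed the call and open points did not. *Aqp5* is the only aquaporin called higher at E18.5, in the 4 comparisons where it was tested, and *Aqp2* lies between -1.56 and -3.59 in all 5 comparisons at E18.5.

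Marker lists of the cell types that carry these channels were set beside them in whole Six2 kidneys. All 10 proximal tubule markers fell in both alleles (medians -3.11 and -3.26, against -0.01 and 0.00 over all tested genes), among them the phosphate transporter *Slc34a1* (-2.68 in T1) and the endocytic receptor *Lrp2* (-2.78 in T1). The summed level of the list was 2696 to 3288 CPM in controls, 403 to 507 in T1 and 398 to 433 in T3. Of 10 ureteric tree markers, 0 were lower in T1 and 1 was higher (*Krt19*, 0.79), while in T3 2 were lower and 1 was higher. The sums overlapped (1341 to 1618 CPM in controls, 1431 to 1459 in T1, 1349 to 1443 in T3). Of 6 tested principal cell markers, 4 were lower in T1 and 4 in T3, including the epithelial sodium channel subunit *Scnn1g* (-0.71 in T1) and the urea transporter gene *Slc14a2* (-0.99 in T1). The highest of the 6 stood at 0.32 in T1 and at 0.34 in T3, and 0 were called higher. Of 8 intercalated cell markers 5 were lower in T1 and 4 in T3. Among these, in T1, pendrin (*Slc26a4*) fell by 2.23 on the log2 scale, and the proton pump subunit *Atp6v1g3* by 1.55, while the intercalated cell factor *Foxi1* was at -0.42 (adjusted p = 0.0508) and not called. Macrophage markers were called higher for 7 of 8 in both alleles. The part of these cell types in the aquaporin differences was not tested.

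Levels in normal sorted Six2 cells at E18.5 were set beside those in whole Six2 control kidneys. The mean CPM of *Aqp7* was 38.1% of its mean in whole kidneys, that of *Aqp11* 23.0% and that of *Aqp1* 21.8%. *Aqp6* had 18.7% and *Aqp5* 14.02%. The principal cell channels had the lowest values of the 8, with 6.96% for *Aqp3*, 2.91% for *Aqp2* and 1.502% for *Aqp4*. These are ratios of levels in libraries made with different kits, and do not measure the part of a transcript that the lineage held. *Aqp8*, on 6 reads in the sorted cells, is left out. Per length, *Aqp1* (15.5 to 24.1 RPKM) stood clear of *Aqp3* (2.67 to 3.45) and *Aqp2* (1.89 to 3.42), which overlapped.

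Within these cells at E18.5, *Aqp1* had the largest fold of the tested aquaporins. The controls had 56.5, 63.4 and 40.7 CPM and the mutants 4.97, 6.20 and 4.44, with no overlap. The difference was 10.2-fold (log2 -3.36 ± 0.17, adjusted p = 1.65e-08). *Aqp7* stood at 2.25, 2.43 and 2.44 CPM in controls and 1.43, 0.928 and 0.906 in T1, 2.17-fold lower (adjusted p = 0.00401). *Aqp11* stood at 6.70, 5.89 and 4.33 CPM in controls and 3.42, 2.49 and 2.48 in T1, 2.01-fold lower (adjusted p = 0.00236). *Aqp8* was not tested, with 5, 0 and 1 reads in the controls and 0, 0 and 1 in T1. The proximal tubule list fell in 10 of 10 genes here too (sums 1462 to 1963 CPM in controls, 460 to 505 in T1).

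The collecting duct genes were at low but measurable levels in the sorted cells and moved as in the whole kidney. *Aqp2* had 4.35, 4.85 and 2.68 CPM in controls and 1.45, 0.702 and 1.51 in T1 (log2 -1.70 ± 0.29, adjusted p = 0.000976). *Aqp3* had 4.89, 6.18 and 6.32 CPM in controls and 4.07, 2.92 and 3.34 in T1 (-0.74 ± 0.17, adjusted p = 0.00656). *Aqp6* had 0.910, 2.57 and 2.51 CPM in controls and 0.305, 0.0752 and 0.346 in T1, 8.15-fold lower (-3.03 ± 0.50, adjusted p = 0.000658). All 3 were separated between genotypes, though the share of all tested genes so separated was not taken. *Aqp4* overlapped, at 0.531, 1.39 and 0.653 CPM in controls and 0.936, 0.201 and 0.773 in T1 (adjusted p = 0.638). *Aqp5* had 0.430, 0.293 and 0.227 CPM in controls and 1.24, 0.464 and 0.866 in T1, and was called higher (1.43 ± 0.43, adjusted p = 0.0321). That call was lost without Six2-ENLT1 replicate 1 (adjusted p = 0.184) or replicate 3 (0.0873) and without ENLWT replicate 2 (0.101) or replicate 3 (0.102).

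Thus 6 of the 8 tested aquaporins were called lower in sorted E18.5 cells, where 5.54% of the 22685 tested genes were, and 1 was called higher, where 6.14% were. When all 12 sorted Six2 libraries shared one estimate of the spread, 4 remained past the threshold, and *Aqp3* (adjusted p = 0.457), *Aqp7* (0.124) and *Aqp5* (0.0986) did not. Markers of other cells differed in the sort. Red cell markers were higher for 5 of 7 (sums 107 to 211 CPM in controls, 1553 to 2275 in T1) and macrophage markers for 6 of 8. The endothelial sum was 51.7 to 62.7 CPM in controls and 33.7 to 50.7 in T1. Of 8 stromal markers 5 were higher and 2 lower (sums 354 to 600.3 CPM in controls, 858 to 985 in T1). Of 7 tested intercalated cell markers 5 were lower, with *Insrr*, a receptor kinase of these cells, at -3.16 and *Foxi1* at -3.01. The ureteric tree sums overlapped (514 to 669 CPM in controls, 481 to 545 in T1). The part of these cells in the aquaporin differences was not tested.

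At E14.5 the sorted cells held little aquaporin RNA. *Aqp11* was the best counted in normal cells, with 276, 352 and 508 reads (2.15 to 3.88 CPM), and its mutant libraries had 372, 235 and 419 reads, overlapping with the controls. *Aqp1* had 21, 13 and 33 reads in controls and 160, 34 and 153 in T1 (0.164, 0.0928 and 0.252 CPM against 1.13, 0.278 and 1.10). The ranges nearly met, at 33 and 34 reads. It was called higher, by 2.32 ± 0.59 on the log2 scale (adjusted p = 0.0376), the reverse of its direction at E18.5, as the only one of 8 tested aquaporins, where 4.11% of the 22387 tested genes were higher. The call was lost without Six2-ENLT1 replicate 1 (adjusted p = 0.116) or replicate 3 (0.12) and without ENLWT replicate 1 (0.0982) or replicate 2 (0.123), and *Aqp1* was not tested where genes over 1 CPM only were kept. Of the proximal tubule markers tested there, 6 in all, none was higher and 1 was lower. Red cell sums were 1.01 to 104 CPM in controls and 61.5 to 105 in T1, and endothelial sums 30.9 to 33.7 CPM and 18.2 to 42.9. Of 8 endothelial markers 1 was higher and 1 lower, and of 8 stromal markers 5 were higher and 1 lower (sums 501 to 643 CPM and 915 to 1773). *Aqp1* is made by red cells and endothelium, and the part of other cells in its difference was not tested. *Aqp5* was separated as well, with 16, 21 and 3 reads in controls and 58, 29 and 41 in T1, but did not pass (1.67 ± 0.64, adjusted p = 0.141).

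From E14.5 to E18.5, normal Six2 cells gained aquaporin RNA by very different factors. Development was called past 2-fold with an adjusted p below 0.01. *Aqp1* rose 316-fold (log2 8.30 ± 0.47, adjusted p = 6.02e-10), *Aqp2* 47.1-fold, *Aqp6* 18.7-fold, *Aqp7* 17.1-fold and *Aqp3* 11.8-fold. *Aqp11* rose less (log2 0.99 ± 0.25) and fell just short of the fold, and *Aqp4* (1.73, adjusted p = 0.0146) and *Aqp5* (1.66, adjusted p = 0.0201) did not pass. Without any of 5 libraries (ENLWT E14.5 replicate 3, each of the 3 Six2-ENLT1 E18.5 libraries, and ENLWT E18.5 replicate 3) *Aqp11* passed, with log2 values of 1.02 to 1.27, and without Six2-ENLT1 E18.5 replicate 2 *Aqp4* passed as well (1.76). So 5 of 8 were called, where 24.8% of the 25222 tested genes were higher.

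In Six2-ENLT1 cells 4 of 8 were called (24.4% of tested genes), and *Aqp1* rose 6.16-fold (log2 2.62 ± 0.36, adjusted p = 1.29e-05), *Aqp2* 11.6-fold, *Aqp7* 8.09-fold and *Aqp3* 4.36-fold. The call of *Aqp3* was lost without each of 5 E18.5 libraries, namely Six2-ENLT1 replicate 1 (adjusted p = 0.0203), replicate 2 (0.0108) and replicate 3 (0.0147) and ENLWT replicate 2 (0.0103) and replicate 3 (0.0104). *Aqp6* (log2 2.43, adjusted p = 0.0195) did not pass, and passed without Six2-ENLT1 E14.5 replicate 3 (4.29) or E18.5 replicate 2 (2.85). *Aqp4* (1.75) passed without Six2-ENLT1 E18.5 replicate 2 (2.16), and *Aqp5* (1.45) without ENLWT E14.5 replicate 3 (1.44). *Aqp11* (0.15) did not pass.

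The test of the difference between the gains, equal to that between the T1 effects at the 2 stages, called *Aqp1* (log2 -5.68 ± 0.57, adjusted p = 3.55e-05), 1 of 8 tested aquaporins beside 4.22% of tested genes that were lower. *Aqp2* was next (-2.02 ± 0.60, adjusted p = 0.0555). It passed without ENLWT E14.5 replicate 1 (adjusted p = 0.0198) or ENLWT E18.5 replicate 3 (0.0403), and *Aqp11* (-0.83, adjusted p = 0.182) passed without ENLWT E14.5 replicate 3 (0.0488).

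Foxd1-Cre expresses the mutant in the stromal lineage. In sorted Foxd1 controls the summed podocyte markers were 427 to 750 CPM, against 945 to 975 in whole Foxd1 controls. Proximal tubule sums were 130 to 391 CPM against 3163 to 3352. Whether nephron cells of these kidneys carried the mutant was not tested. Whole Foxd1-ENLT1 kidneys had lower levels of 7 of 9 aquaporins and a higher level of *Aqp5*. Among 20145 tested genes 7.53% were lower and 2.65% higher. The CPM of the called aquaporins did not overlap between the genotypes, but the share of all tested genes so separated was not taken. For *Aqp8*, not called, the ranges nearly met, at 0.500 CPM (38 reads) in a control and 0.505 (34 reads) in a mutant library.

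*Aqp2* fell in these kidneys. It stood at 285, 429 and 332 CPM in controls and at 100.2, 85.8 and 90.7 in Foxd1-ENLT1, 3.78-fold lower (log2 -1.92 ± 0.12, adjusted p = 9.99e-08). *Aqp6* stood at 7.71, 9.52 and 9.34 CPM in controls and 1.81, 1.87 and 2.51 in the mutant, 4.28-fold lower (-2.10 ± 0.15, adjusted p = 4.15e-07). *Aqp4* stood at 30.2, 35.3 and 34.9 CPM against 14.6, 17.7 and 17.5, 2.01-fold lower (-1.01 ± 0.09, adjusted p = 1.7e-06). *Aqp3* stood at 79.2, 101.0 and 84.9 CPM against 55.9, 53.3 and 56.4 (-0.68 ± 0.08, adjusted p = 2.26e-05), and its fold fell under 1.5 without ENLWT replicate 2 (-0.57). *Aqp5* stood at 1.01, 1.74 and 1.25 CPM against 3.58, 2.78 and 3.48, 2.46-fold higher (1.30 ± 0.21, adjusted p = 0.00038).

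Of the nephron channels 3 fell. *Aqp1* stood at 251, 277 and 265 CPM in controls and 131, 142 and 145.4 in Foxd1-ENLT1 (log2 -0.92 ± 0.06, adjusted p = 1.47e-07). *Aqp11* stood at 31.0, 29.0 and 29.4 CPM against 16.8, 19.1 and 17.8 (-0.74 ± 0.07, adjusted p = 3.4e-06). *Aqp7* stood at 6.61, 7.22 and 5.61 CPM against 4.41, 3.76 and 4.63 (-0.60 ± 0.13, adjusted p = 0.00349), and its fold fell under 1.5 without Foxd1-ENLT1 replicate 2 or ENLWT replicate 2 (-0.52 in each case). *Aqp8* had 0.500, 0.166 and 0.402 CPM in controls and 0.505, 0.584 and 0.511 in the mutant, on 13 to 44 reads a library (0.59 ± 0.40, adjusted p = 0.291).

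Beside these values, 9 of 10 proximal tubule markers were lower (median -1.12) and the ureteric tree list had 2 higher (*Ret*, the receptor of ureteric bud tips, 0.72, and *Krt19*, 0.69) and 0 lower. Of 6 principal cell markers tested 3 were lower (*Slc14a2* -1.34, *Elf5* -1.12 and *Scnn1g* -0.85), and of 8 intercalated cell markers 6 were lower, from *Hmx2* (-2.75) to *Insrr* (-0.67). In the list of vasopressin response and collecting duct water transport, 6 of 17 tested genes were lower and 1 was higher. The lower ones included the prostaglandin receptor *Ptger3* (-1.82), the sodium channel subunit *Scnn1a* (-1.06) and the kinase gene *Sgk1* (-0.88), and the higher one was the epithelial factor *Elf3* (0.77). In whole Six2-ENLT1 kidneys that list had 4 lower and 1 higher of 17. The vasopressin receptor *Avpr2* was too low to be tested in either line. Macrophage markers had 0 of 8 calls here, against 7 of 8 in Six2-ENLT1. The part of these cells in the aquaporin differences was not tested.

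**Figure D3:**
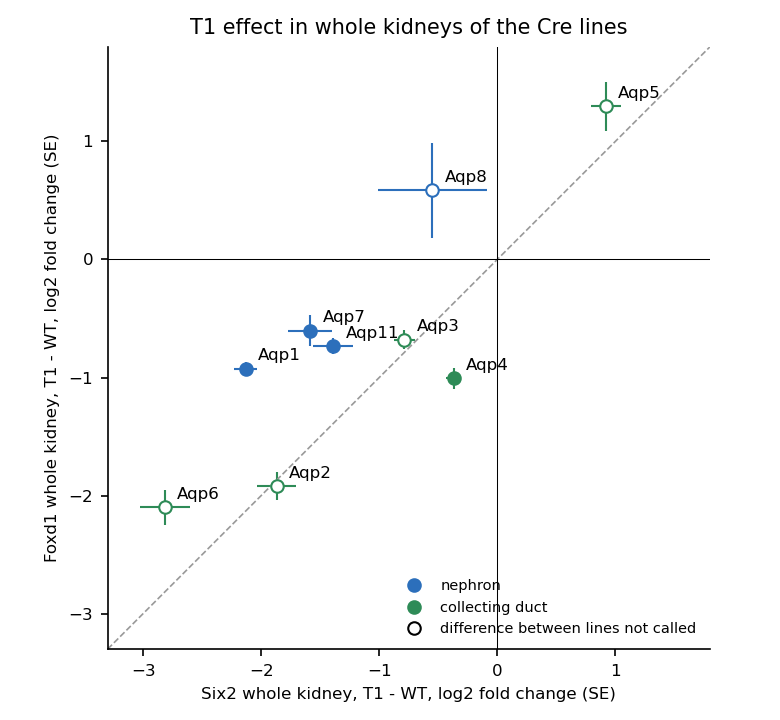
T1 effect on each aquaporin in whole Six2 kidneys (x axis) and whole Foxd1 kidneys (y axis), as log2 fold change with standard error; the dashed line marks equal effects, and filled points are genes whose difference between the lines passed the test. *Aqp1*, *Aqp7* and *Aqp11* lie above the line and *Aqp4* below it, while *Aqp2* and *Aqp3* lie on it within their errors.

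The difference between the Cre lines was tested over their 10 whole-kidney libraries of ENLWT and T1. The T1 effect on *Aqp1* was higher, that is less negative, in the Foxd1 line by 1.19 ± 0.13 on the log2 scale (adjusted p = 7.09e-05), on *Aqp7* by 0.96 ± 0.21 (adjusted p = 0.0141) and on *Aqp11* by 0.63 ± 0.17 (adjusted p = 0.0336). These are 3 of 9 aquaporins, beside 4.82% of 22826 tested genes. *Aqp4* was the 1 with a lower value in the Foxd1 line (-0.65 ± 0.13, adjusted p = 0.0084), beside 3.55% of genes. For *Aqp2* (-0.06 ± 0.24), *Aqp3* (0.10 ± 0.14) and *Aqp5* (0.36 ± 0.29) no difference was detected, and *Aqp6* (0.70 ± 0.25, adjusted p = 0.108) and *Aqp8* (1.11 ± 0.64) did not pass. The lines were sequenced at different read lengths, and line and sequencing cannot be told apart. Sex differed as well, with both Six2-ENLT1 libraries male, their controls 1 of each and all whole Foxd1 libraries female, and its part cannot be told apart either. *Aqp7* lost its call without Six2-ENLT1 replicate 2 (adjusted p = 0.0918). *Aqp11* lost it without Foxd1-ENLT1 replicate 2 (0.072) or 3 (0.0622), without Foxd1 ENLWT replicate 1 (0.0593), 2 (0.071) or 3 (0.0728), without Six2-ENLT1 replicate 1 (0.157) and without Six2 ENLWT replicate 1 (0.0748).

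In sorted Foxd1 cells, the stromal lineage, 2 aquaporins had enough reads to be tested. *Aqp2* had 163, 109, 76 and 72 reads in the controls (45.7, 32.1, 30.9 and 26.3 CPM) and 9, 6, 9 and 8 in Foxd1-ENLT1 (3.35, 2.01, 3.27 and 2.61 CPM). It was 12.1-fold lower (log2 -3.59 ± 0.24, adjusted p = 1.58e-08), the 1 of 2 that was called, among 12717 tested genes of which 2.18% were lower. *Aqp1* had 114, 53, 59 and 37 reads in controls and 35, 47, 31 and 43 in the mutant, which overlap (-0.66 ± 0.23, adjusted p = 0.0803). It passed without ENLWT replicate 2 (adjusted p = 0.041) or replicate 4 (0.0196), while without ENLWT replicate 1, the highest library, the log2 difference was -0.36 (adjusted p = 0.316). *Aqp3* had 9, 13, 11 and 10 reads against 6, 4, 6 and 2, apart but under the filter on low counts. Without ENLWT replicate 1 it entered the test and was called (-1.31 ± 0.41, adjusted p = 0.0471). It also entered without each of the 4 Foxd1-ENLT1 libraries and was called in none of these fits (adjusted p from 0.0609 to 0.205). *Aqp4*, *Aqp5*, *Aqp6* and *Aqp7* had 0 to 8 reads a library. *Aqp8* had 1, 1, 2 and 1 reads in controls and 0 in each mutant library, all under the floor.

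The mean level of *Aqp2* in sorted Foxd1 control cells, 33.7 CPM, was 9.67% of the 349 CPM in whole Foxd1 control kidneys. These libraries were made with different kits and differ in sex, and the ratio does not tell which cells held the transcript. Beside the fall of *Aqp2*, the summed ureteric tree markers were 167 to 209 CPM in sorted controls and 167 to 201 in Foxd1-ENLT1. None of 8 tested was called, that is 0 of 8, and whole Foxd1 controls had 1243 to 1311 CPM. The principal cell list had 28.3 to 40.1 and 30.6 to 36.3 CPM in the sorted cells, with 0 of 2 called. Proximal tubule sums were 130.1 to 391 CPM in controls and 61.0 to 116 in the mutant. Macrophage markers were higher for 6 of 8.

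The difference of the T1 effects between the sorted lineages at E18.5 was called for both leading genes, in opposite directions. *Aqp1* was higher in the Foxd1 lineage by 2.68 ± 0.32 (adjusted p = 3.74e-06), 1 of 4 tested aquaporins beside 8.25% of 14869 genes, and *Aqp2* was lower by 1.93 (log2 -1.93 ± 0.44, adjusted p = 0.00376), beside 7.63% of genes. *Aqp11* (0.59 ± 0.40) and *Aqp3* (-0.45 ± 0.44) did not pass. Lineage and sequencing cannot be told apart here either. The sorted Foxd1 libraries were all male and the sorted Six2 libraries of both sexes, so that lineage and sex are not separate.

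The share of nephron channels in the summed aquaporin RPKM shifted in opposite ways in the 2 lines, while channels of both sets fell in whole kidneys of each. The controls of the lines differed too, with a mean *Aqp2* of 136 CPM in whole Six2 controls and 349 in whole Foxd1 controls. The nephron sum was mostly *Aqp1*, with a mean of 93.3 of 98.4 RPKM in whole Six2 controls and 100.7 of 106.3 in whole Foxd1 controls. In whole kidneys the share thus largely restates *Aqp1* against the collecting duct genes. *Aqp1*, *Aqp7*, *Aqp8* and *Aqp11* made up 40.7% and 37.0% of the summed aquaporin RPKM in whole Six2 controls, 26.8% and 27.6% in T1 and 24.4% and 23.6% in T3. In whole Foxd1 kidneys their share was 28.6%, 23.2% and 26.8% in controls and 33.6%, 37.9% and 37.2% in T1. Sorted Six2 cells at E18.5 went from 78.4%, 75.8% and 71.9% to 40.8%, 55.9% and 39.5%, and sorted Foxd1 cells from 21.5 to 29.3% to 56.8 to 73.8%. The shares in sorted Foxd1 cells rest on 136 to 313 aquaporin reads a library in controls and 59 to 71 in the mutant. In each of these 5 contrasts the libraries of the genotypes did not overlap.

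**Figure D4:**
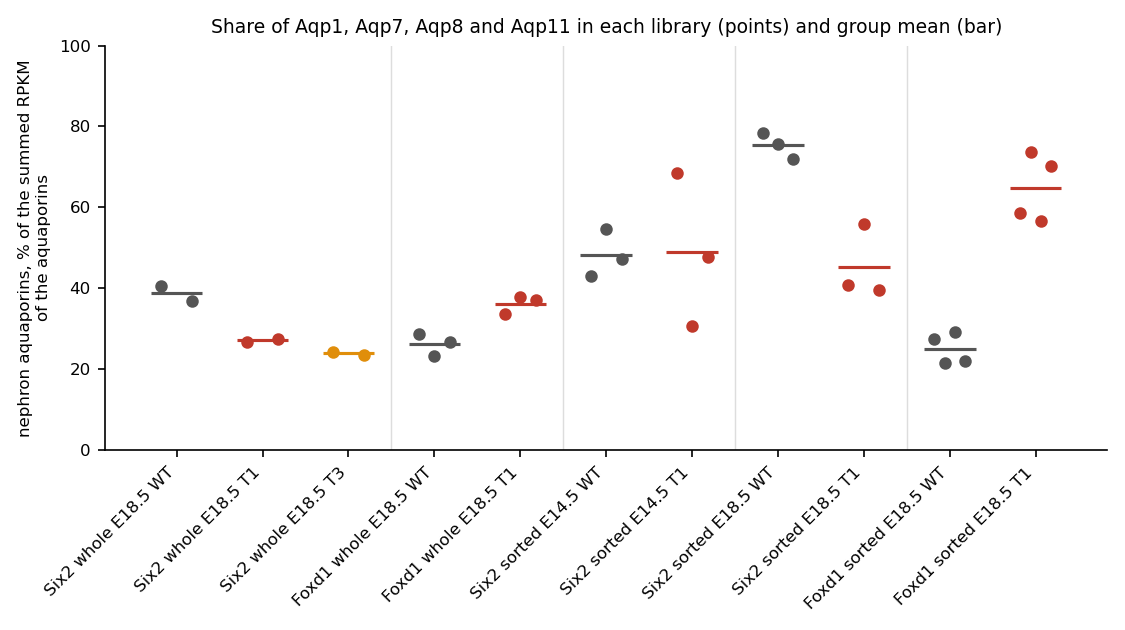
Percent of the summed aquaporin RPKM that comes from the nephron aquaporins, by library (points) with group means (bars). It is lower in the mutants of the Six2 line at E18.5 and higher in those of the Foxd1 line, while the sorted cells at E14.5 overlap.

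Within the tandem on chromosome 15 the read ratios of *Aqp2* and of *Aqp6* to *Aqp5* were lower in the mutants. Both ratios share *Aqp5*, called higher, as the divisor, and both upper genes were called lower. The ratios thus restate these calls and are no separate result. Per read of *Aqp5*, whole Six2 controls had 52.4 and 68.2 reads of *Aqp2*, T1 had 7.66 and 9.70, and T3 had 7.87 and 8.05. In whole Foxd1 kidneys the ratio went from 247 to 282 down to 26.1 to 30.9, and in sorted Six2 cells at E18.5 from 10.1 to 16.6 down to 1.17 to 1.74. For *Aqp6* the ratio to *Aqp5* went from 4.56 and 4.94 to 0.304 and 0.407 in T1 and 0.253 and 0.386 in T3. A ratio of counts within a library does not depend on its depth, but it is not adjusted for exon length.

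**Figure D5:**
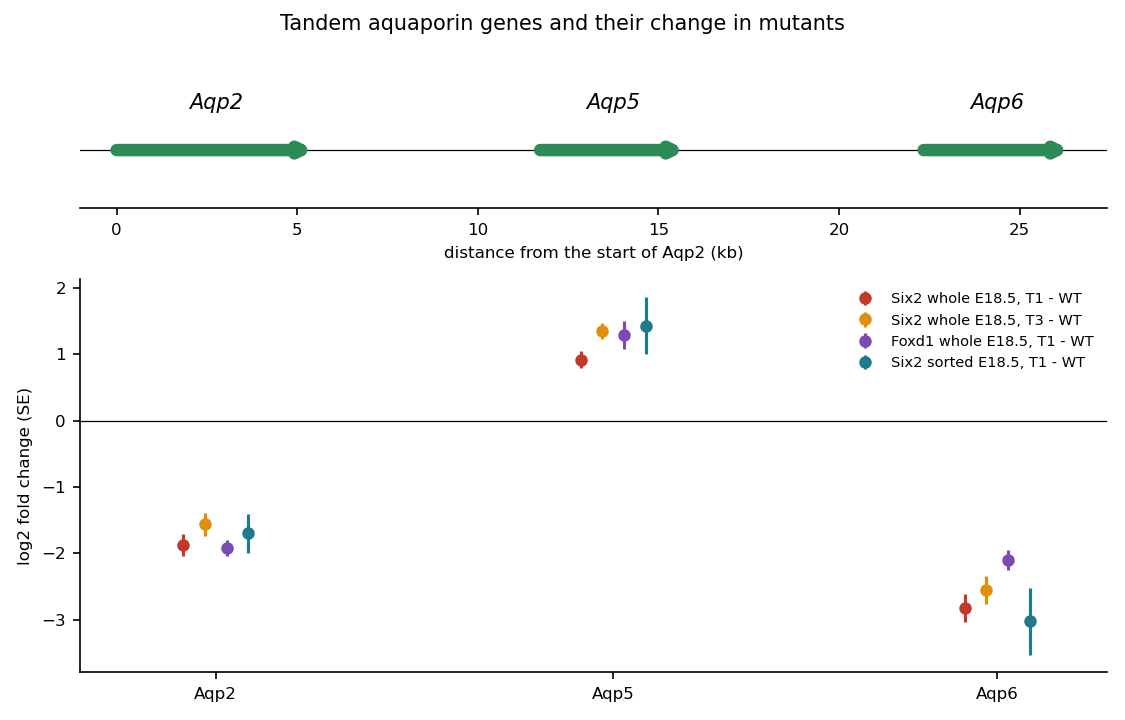
Upper panel, the 3 tandem genes by distance from the start of *Aqp2* (kb), arrows in the direction of transcription; lower panel, log2 fold change with standard error of each gene in 4 comparisons at E18.5. *Aqp2* and *Aqp6* lie below 0 and *Aqp5*, which is between them, above 0 in all 4.

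The 13 other genes that are nearest to the members were mostly not called. In whole Six2 kidneys 10 were tested and 2 were lower in both alleles. These were *Ghrhr*, the growth hormone releasing hormone receptor gene beyond *Aqp1* (-3.73 in T1 and -3.06 in T3), and *Chst9*, a sulfotransferase gene beyond *Aqp4* (-1.35 and -1.47). In whole Foxd1 kidneys 0 of 9 tested neighbours were called. *Racgap1*, which borders the tandem beyond *Aqp6*, was at 0.27 there.

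The genes whose levels followed a member most closely over the 11 group means are given as a description, since these points share libraries and cell types. For *Aqp1* they were *Pdzk1ip1* (Pearson r = 0.99), *Plscr2*, the organic cation transporter *Slc22a2*, *Napsa* and *Tmem174* (0.98), and for *Aqp2* the calcium-binding protein gene *S100g* (0.99), *Slc25a45*, the adrenergic receptor *Adra2b*, *Tmem38b* and the vitamin D hydroxylase *Cyp24a1* (0.97), among 14731 genes. Between members, *Aqp3* and *Aqp4* had the highest r (0.97), and *Aqp2* and *Aqp5* the lowest (0.54).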

How the data were processed

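RNA was measured in 32 libraries of 11 groups, taken from the sample titles. The authors selected polyadenylated RNA, prepared whole kidneys with a stranded kit and sorted cells with one for very low input, used HISAT2 and the mm10 genome for alignment and obtained unstranded gene counts with HTSeq. The values they deposited are raw counts. The annotation release is not given in the sources used here. Symbols and coordinates come from GENCODE vM21, which holds 55536 of 55806 identifiers, and 270 stayed unnamed.

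Counts were fitted in R 4.3.3 with edgeR 4.0.16 (filterByExpr with a minimum count of 10 and a minimum total of 15, TMM factors, quasi-likelihood test, Benjamini-Hochberg adjustment over all tested genes). All 6 libraries of whole Six2 kidney shared 1 fit, other genotype comparisons on their own libraries, and interactions, called at an adjusted p under 0.05 with no fold threshold, on all libraries they name. Alternatives were DESeq2 1.42.0, edgeR's exact test, RLE factors, genes over 1 CPM, no filter on low counts, scaling by library size only, the replicate number as a block, all 12 sorted Six2 libraries, no fold threshold, and each library left out. Counts and floors carry counting error only. The models were tested on simulated data. Sex was read from *Xist* and *Ddx3y* at a ratio of 10. The genes named are the 9 members, the marker lists by their counts and called or extreme genes, the nearest neighbours, and the 5 genes most correlated with *Aqp1* and with *Aqp2* among those with a mean of at least 5 CPM in a group (log2 CPM with a prior count of 2). Members and lists were chosen with earlier results of these data known. Figures were drawn with matplotlib 3.10.9.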

Additional observations from a re-analysis of the deposited data

Results flagged for a closer look

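The effect of T1 differed between settings for 5 aquaporins, each by a test of the difference itself. *Aqp1* did so in 3 such tests. In sorted Six2 cells its T1 effect at E18.5 was lower than at E14.5 by a log2 difference of -5.68. In whole kidneys its effect was 1.19 higher in the Foxd1 line than in the Six2 line, and in sorted cells 2.68 higher in the Foxd1 lineage. In whole kidneys the effect was also higher in the Foxd1 line for *Aqp7* (0.962) and *Aqp11* (0.633) and lower for *Aqp4* (-0.65). In sorted cells the effect on *Aqp2* was lower in the Foxd1 lineage (-1.93). Between lines and lineages the sequencing and the sex of the libraries differed as well, and their part cannot be told apart. Outlying libraries were looked for in 6 sets of 4 libraries, all of sorted Foxd1 cells, and 0 were found.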

How the results depend on the processing

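Of 756 alternative values for called aquaporins, 723 were called in the same direction, 33 kept the direction without the call and 0 reversed. Of 703 for aquaporins that were not called, 42 were called and 42 reversed.

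The number called in sorted Six2 cells at E14.5 (1) was 0 with genes over 1 CPM, since *Aqp1* was then not tested, and 0 to 1 with a library left out. At E18.5 (7) it was 4 with all 12 sorted libraries. For development it was 8 by DESeq2 in normal cells (5) and 7 in T1 cells (4). For the stage difference (1) it was 2 by DESeq2, with no filter and over 1 CPM, each adding *Aqp2* (adjusted p = 0.00835, 0.02 and 0.0482), and 1 to 2 with a library left out. In sorted Foxd1 cells (1) it was 2 with no filter, adding *Aqp1* (0.00276), and 1 to 2 with a library left out. The call of *Aqp11* between the Cre lines was lost with library size only (0.0594) and over 1 CPM (0.0516), and *Aqp6* was called there by DESeq2 (0.0357) and with no filter (0.0221). With scaling by library size only, the median of all genes in sorted Six2 cells was 0.11 for T1 at E18.5, against 0.0153 in the main fit. For normal development it was -0.12, against 0.0155. The cause of these changes was not tested.

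Values that reversed belonged to aquaporins that were not called (log2), and none was called after the reversal. *Aqp11* between T3 and T1 was -0.0044 by DESeq2 and -0.000084 with no filter. *Aqp7* at E14.5 was 0.0096 with library size only. *Aqp4* for the stage difference was -0.013 with RLE factors, -0.011 by DESeq2 and -0.026 with no filter. With a library left out the ranges were, between T3 and T1, -0.21 to 0.10 for *Aqp1*, -0.0062 to 0.54 for *Aqp6*, -0.31 to 0.11 for *Aqp7*, -0.39 to 0.40 for *Aqp8* and -0.14 to 0.14 for *Aqp11*; at E14.5, -0.0081 to 0.92 for *Aqp2*, -0.56 to 0.68 for *Aqp7* and -0.33 to 0.13 for *Aqp11*; at E18.5, -0.82 to 0.11 for *Aqp4*. They were -0.034 to 0.29 for *Aqp11* in T1 development, -0.41 to 0.50, -0.64 to 0.25 and -2.33 to 0.068 for *Aqp4*, *Aqp5* and *Aqp6* in the stage difference, and -0.28 to 0.18 and -0.049 to 0.23 for *Aqp2* and *Aqp3* between the Cre lines.

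Nothing in the sources says that replicate numbers shared across groups pair the libraries, and whether they do cannot be told. Deviations of same-numbered libraries from their group means correlated between -0.0791 and 0.139. With the replicate block *Aqp7* at E14.5 was 0.17, *Aqp4* for the stage difference -0.038, *Aqp11* between the Cre lines lost its call (adjusted p = 0.0553) and *Aqp6* gained one in T1 development (0.00984). The block changed no other call. Depth limits what sorted Foxd1 cells can show for the 7 aquaporins not tested there.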

Other observations

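The 3 aquaporin genes looked at outside the choice were near the floor. *Aqp12* had at most 8 reads in a library and *Mip* at most 6, with 57.04% of the exon length of *Mip* shared with *Gm26847*. *Aqp9* had at most 24 reads in a library of any group but normal sorted Six2 cells at E14.5, where the libraries ran from 0 to 64 reads.

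Between genotypes in sorted Six2 cells, 1 of 9 tested neighbours of the members was called at E14.5 and 2 of 9 at E18.5. Between stages 4 of 9 were called in normal cells, all lower at E18.5, and 3 of 9 in T1 cells. At E14.5 *Chst9*, beyond *Aqp4*, was higher in T1 (log2 0.84 ± 0.13, adjusted p = 0.00416), and at E18.5 it was lower (-0.73 ± 0.22, adjusted p = 0.0335). *Aqp4* itself was not called at either stage. *Zkscan2*, beyond *Aqp8*, was higher at E18.5 (0.67 ± 0.14, adjusted p = 0.00422).

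Endothelial and stromal lists in whole Six2-ENLT1 kidneys had 0 of 8 and 1 of 8 genes called, against 5 of 5 podocyte markers and 6 of 6 nephron progenitor markers lower. In whole Foxd1-ENLT1 kidneys 0 of 5 podocyte markers were called, and 5 of 6 nephron progenitor markers were higher. Of 5 urothelial markers, 4 were lower in Six2-ENLT1 and 3 in Foxd1-ENLT1.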
